A study of Mus musculus with 8 samples.

Results

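The metallothionein genes Mt1 and Mt2 were examined together with 5 genes known to respond to glucocorticoids, Fkbp5, Tsc22d3, Zbtb16, Sgk1 and Cdkn1a, in gastrocnemius muscle of mice with and without Anxa2. The 7 genes are 7 of the 17352 rows of the expression table, taken by their Ensembl row IDs. They were chosen by a measured value, the lower mean of Mt2 in the knockout, to see whether Mt1 and the hormone-responsive genes shared it. The difference between genotypes was thus used in the choice, and it is given below as a description. Counts past a threshold of the fit are printed for the 7 genes only beside those over all rows, and support nothing here. The gastrocnemius is a fast-twitch calf muscle. The mice were 24 weeks old on a C57BL/6 background, 4 wild type and 4 Anxa2 knockout, with 1 array for each animal labelled as a biological replicate. Anxa2 encodes annexin A2, a calcium-dependent membrane-binding protein, and the series concerns its part in muscle repair. The labels used here mention no injury, treatment or sex, and do not say how the knockout allele was made or whether it reaches all tissues.

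Metallothioneins are small, cysteine-rich proteins that bind zinc and copper. Their genes are switched on by the zinc-sensing transcription factor MTF-1, which binds metal response elements near the start site, and they also respond to glucocorticoids, cytokines and oxidative stress. Glucocorticoids are adrenal stress hormones that act through the glucocorticoid receptor, a transcription factor that binds glucocorticoid response elements. In skeletal muscle they favour protein breakdown and alter glucose use. Neither hormone nor zinc was measured here.

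Mt1 and Mt2 lie on chromosome 8 and are adjacent among protein-coding genes in the RefSeq annotation of GRCm38.p6, with Mt3 on the other side of Mt2. Promoter windows of RefSeq, 250 bases before to 50 after a start site, matched 6 of the 7 genes by symbol, in 14 windows. Zbtb16 is the gene without one. The windows were searched on both strands for the core of the metal response element, TGCACNC or TGCGCNC, and for a loose form of the glucocorticoid response element, GNACA and TGTNC separated by 3 bases. The 250 bases before the start site are shown for Mt2 and Mt1, the pair on which the results turn, and for the Sgk1 window that holds a match to the glucocorticoid element. Capitals mark the matches, and all 3 are read 5′ to 3′ on the plus strand of GRCm38.p6.
Mt2, chr8:94172368-94172617: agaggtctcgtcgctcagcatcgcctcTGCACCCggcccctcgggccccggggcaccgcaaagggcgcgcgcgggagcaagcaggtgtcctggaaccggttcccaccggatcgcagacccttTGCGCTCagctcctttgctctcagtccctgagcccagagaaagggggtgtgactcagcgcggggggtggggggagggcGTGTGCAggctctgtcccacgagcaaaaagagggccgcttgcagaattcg
Mt1, chr8:94178839-94179088: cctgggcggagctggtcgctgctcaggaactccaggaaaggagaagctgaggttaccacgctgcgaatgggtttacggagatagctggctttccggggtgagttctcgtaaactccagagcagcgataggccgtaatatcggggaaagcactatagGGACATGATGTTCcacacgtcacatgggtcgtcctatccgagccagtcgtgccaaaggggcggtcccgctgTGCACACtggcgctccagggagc
Sgk1, chr10:21993640-21993889: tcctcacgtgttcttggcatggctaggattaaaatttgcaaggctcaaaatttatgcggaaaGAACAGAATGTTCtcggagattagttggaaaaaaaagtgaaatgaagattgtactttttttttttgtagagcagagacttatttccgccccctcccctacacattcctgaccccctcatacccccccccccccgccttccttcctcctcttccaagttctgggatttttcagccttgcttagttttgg
The full Mt2 window held 4 matches to the metal element, 3 of them in the stretch shown, and the Mt1 window held 3, of which 1 is shown. Of all 32851 windows, 25.7% held at least 1 such match, 1.97% held 3 or more and 0.517% held 4 or more. The glucocorticoid element had 1 match in the only Mt1 window and 1 in the Sgk1 window shown, against 0.475% of all windows with any. This share is per window, and Sgk1 was searched in 6 windows. Another Sgk1 window held 1 match to the metal element after its start site. The windows of Fkbp5, Tsc22d3 and Cdkn1a held neither. A match is a stretch of letters, and absence from these short windows says nothing about elements elsewhere in a gene.

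The values were log2 expression values computed by the authors with RMA, and the number of arrays limits their precision. A change of 1 on this scale is a 2-fold change in signal. In bulk muscle, fewer cells of a type and less RNA per cell cannot be told apart. The other rows carry no symbols, so the row of Anxa2, markers of muscle and of other cell types, and further hormone-responsive genes were not analysed here. Wild type replicate 4 had a mean correlation with the other arrays of 0.978, against 0.988 to 0.991 in the other 7, and with knockout replicate 2 it had the narrowest distribution of values. The row ENSMUSG00000086503_at set wild type replicates 1 and 2 and knockout replicates 3 and 4 (8.98 to 9.64) apart from the other 4 arrays (3.56 to 4.07). The row ENSMUSG00000069045_at divided the same arrays the other way, at 2.59 to 2.71 in the former 4 and 8.40 to 9.05 in the latter. This division crosses genotype, and the labels used here name no property of the animals that follows it. Results are therefore also given without wild type replicate 4 and knockout replicate 2, and for each side of this division.

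Mt2 had a lower mean in the knockout, 2.32-fold below wild type, and Mt1 had a mean 1.79-fold below. The other 5 genes also had lower knockout means, by 1.08-fold to 1.32-fold. In each of the 7 genes the arrays of the genotypes overlapped: in Mt1, Mt2 and Tsc22d3, 3 of the 4 knockout arrays lay below every wild-type array, in Sgk1 2, and in Fkbp5, Zbtb16 and Cdkn1a 1. How often this occurs over all rows was not counted, so nothing is read from these counts. For Mt2 (ENSMUSG00000031762_at) the wild-type arrays read 10.79, 11.08, 9.91 and 9.79 in the order of replicates 1 to 4, and the knockout arrays 8.76, 9.13, 8.84 and 9.96. Of the knockout arrays, 3 lay below every wild-type array, and knockout replicate 4 lay above wild type replicates 3 and 4. The wild-type mean was 10.39 ± 0.64 and the knockout mean 9.18 ± 0.55 (SD, n = 4), which differ by -1.21 (SE 0.33, 95% interval -1.96 to -0.47).

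Mt1 (ENSMUSG00000031765_at) encodes the other of the widely expressed metallothioneins. Its wild-type arrays read 10.54, 10.72, 9.83 and 9.72, and its knockout arrays 9.02, 9.58, 8.91 and 9.95. The arrays fell as they did for Mt2: 3 knockout arrays lay below all wild-type arrays, and knockout replicate 4 lay among them. The wild-type mean was 10.20 ± 0.50 and the knockout mean 9.36 ± 0.49 (SD, n = 4), which differ by -0.84 (SE 0.28, 95% interval -1.46 to -0.21). Among all 17352 rows ordered from the most negative difference, Mt2 was at place 3 and Mt1 at place 8. The Mt2 value minus the Mt1 value of the same array averaged 0.19 ± 0.14 for wild type and -0.19 ± 0.21 for the knockout (SD, n = 4), a gap of 0.38 between the genotypes that the choice of Mt2 for its low knockout value favours. The genes are close paralogs, and how far their probe sets separate them was not tested, since the probe-set definition is not given in the sources used here.

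**Figure D1:**
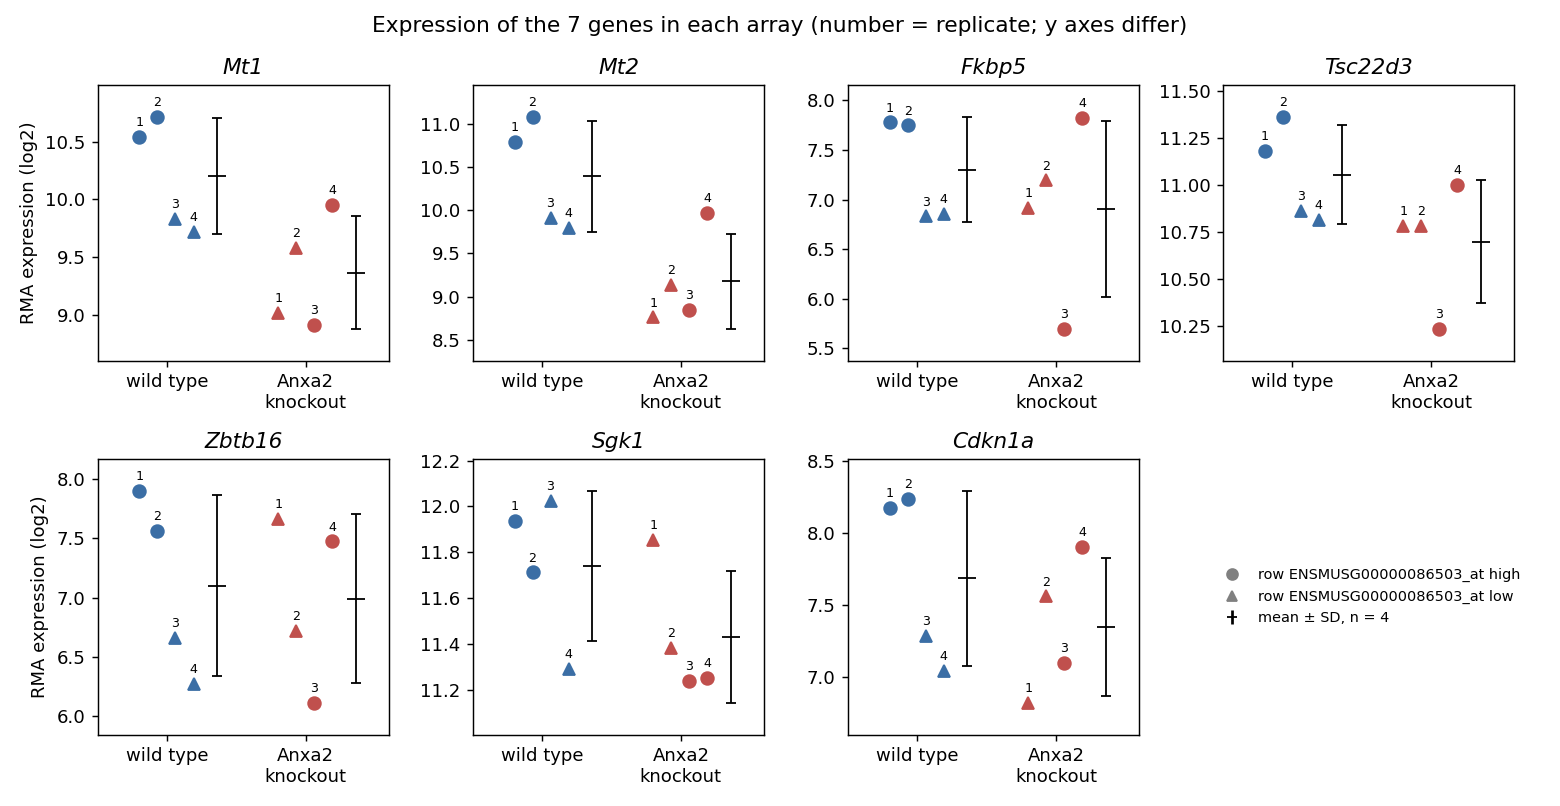
RMA log2 value of each gene in each array, with a panel for each gene and its own y axis. Numbers are replicates, circles and triangles mark arrays with a high or a low value of row ENSMUSG00000086503_at, and bars show the mean and SD of 4 arrays. In Mt1 and Mt2, 3 knockout arrays lie below all wild-type arrays, while in Zbtb16 the groups cover nearly the same range.

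Fkbp5 (ENSMUSG00000024222_at), a co-chaperone of Hsp90 that lowers the hormone binding of the glucocorticoid receptor and is itself induced by it, had the widest range of the 7 genes among the knockout arrays, 2.12. It read 7.78, 7.75, 6.83 and 6.86 in wild type and 6.92, 7.19, 5.70 and 7.82 in the knockout. Knockout replicate 3 was the lowest of all arrays and knockout replicate 4 the highest, so that the knockout range enclosed that of wild type. The means were 7.30 ± 0.53 and 6.91 ± 0.89 (SD, n = 4), with a difference of -0.40 (SE 0.41, 95% interval -1.30 to 0.51).

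Tsc22d3 (ENSMUSG00000031431_at) encodes the glucocorticoid-induced leucine zipper protein, which restrains inflammatory transcription. Its wild-type arrays read 11.18, 11.36, 10.86 and 10.82, and its knockout arrays 10.78, 10.78, 10.24 and 11.00. As with the metallothioneins, 3 knockout arrays lay below all wild-type arrays, here only narrowly in replicates 1 and 2. The means were 11.06 ± 0.26 and 10.70 ± 0.33 (SD, n = 4), and the difference was -0.36 (SE 0.18, 95% interval -0.76 to 0.04).

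Zbtb16 (ENSMUSG00000066687_at) encodes a BTB-domain zinc-finger transcription factor and, like Anxa2, lies on chromosome 9. It read 7.90, 7.56, 6.66 and 6.27 in wild type and 7.66, 6.72, 6.11 and 7.47 in the knockout. Each genotype had a pair of high and a pair of low arrays over nearly the same range. The means of 7.10 ± 0.76 and 6.99 ± 0.71 (SD, n = 4) differed by -0.11 (SE 0.41, 95% interval -1.02 to 0.81).

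Sgk1 (ENSMUSG00000019970_at) encodes a kinase that regulates ion transport and cell survival and is induced by serum and glucocorticoids. It read 11.94, 11.71, 12.03 and 11.29 in wild type and 11.85, 11.38, 11.24 and 11.25 in the knockout. The lowest array of each genotype, wild type replicate 4 and knockout replicate 3, was that of most of the 7 genes. Its high arrays were not: wild type replicate 3 was the highest, and knockout replicate 4, the highest of its genotype in 5 genes, was among the lowest. The means were 11.74 ± 0.33 and 11.43 ± 0.29 (SD, n = 4), with a difference of -0.31 (SE 0.19, 95% interval -0.72 to 0.10).

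Cdkn1a (ENSMUSG00000023067_at) encodes p21, an inhibitor of cyclin-dependent kinases that is a target of p53 as well as of glucocorticoids. It read 8.18, 8.23, 7.28 and 7.04 in wild type and 6.82, 7.56, 7.10 and 7.90 in the knockout. In wild type, replicates 1 and 2 stood well above replicates 3 and 4, and 3 of the knockout arrays fell between these extremes. The means were 7.68 ± 0.61 and 7.34 ± 0.48 (SD, n = 4), and the difference was -0.34 (SE 0.31, 95% interval -1.03 to 0.35).

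The knockout mean was lower in 7 of 7 genes, as it was in 52.9% of all rows, and it was lower by over 0.5 in 2 of 7, Mt1 and Mt2, as in 0.190% of all rows. In limma, 0 of the 7 genes and 0% of all rows had a Benjamini-Hochberg adjusted p under 0.05. At an unadjusted p under 0.05, limma had 2 of the 7 genes lower, again Mt1 and Mt2, against 0.818% of rows. In 0 of 7 genes were all knockout arrays below all wild-type arrays, which held for 0.703% of rows. Nothing is read from these shares, because this contrast chose the set. The median difference was -0.36 over the 7 genes, -0.34 over the 5 hormone-responsive genes and -0.01 over all rows.

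Single arrays moved these differences without turning those of the metallothioneins. With 1 array omitted at a time, the Mt2 difference ran from -1.48 to -0.99 and that of Mt1 from -1.03 to -0.67. The knockout means of Tsc22d3, Sgk1 and Cdkn1a were lower each time, but the size of the difference depended on single arrays. Cdkn1a ran from -0.55, without wild type replicate 4, to -0.16, without wild type replicate 2 and likewise without knockout replicate 1, and it was -0.17 without wild type replicate 1. Tsc22d3 lay between -0.46 and -0.20, the latter when knockout replicate 3 was omitted. Sgk1 ran from -0.46, without wild type replicate 4, to -0.22, without wild type replicate 3. The Fkbp5 difference was -0.70 when knockout replicate 4 was omitted and 0.01 when knockout replicate 3 was. Zbtb16 ran from -0.39 to 0.19, with its sign turned in 3 of the 8 fits, those without wild type replicate 1, wild type replicate 2 or knockout replicate 3. Without wild type replicate 4 and knockout replicate 2 together, the differences were -1.40 (SE 0.38) for Mt2, -1.07 (SE 0.31) for Mt1, -0.64 (SE 0.49) for Fkbp5, -0.46 (SE 0.20) for Tsc22d3, -0.29 (SE 0.44) for Zbtb16, -0.44 (SE 0.17) for Sgk1 and -0.62 (SE 0.32) for Cdkn1a.

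On both sides of the division by ENSMUSG00000086503_at, each with 2 arrays of each genotype, the metallothioneins had lower knockout means. Mt2 differed by -1.53 where that row was high and by -0.90 where it was low, and Mt1 by -1.20 and -0.48. The hormone-responsive genes did so less evenly. Where the row was high, all 5 had lower knockout means, with differences of -1.01 for Fkbp5, -0.65 for Tsc22d3, -0.94 for Zbtb16, -0.58 for Sgk1 and -0.70 for Cdkn1a. Where it was low, Fkbp5 differed by 0.21, Zbtb16 by 0.73 and Cdkn1a by 0.03, each higher in the knockout, while Tsc22d3 differed by -0.06 and Sgk1 by -0.04. The difference between the sides was not tested. With the division as a block, which is balanced over genotype and so cannot move the difference, the SE of Mt2 was 0.24 in place of 0.33.

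**Figure D2:**
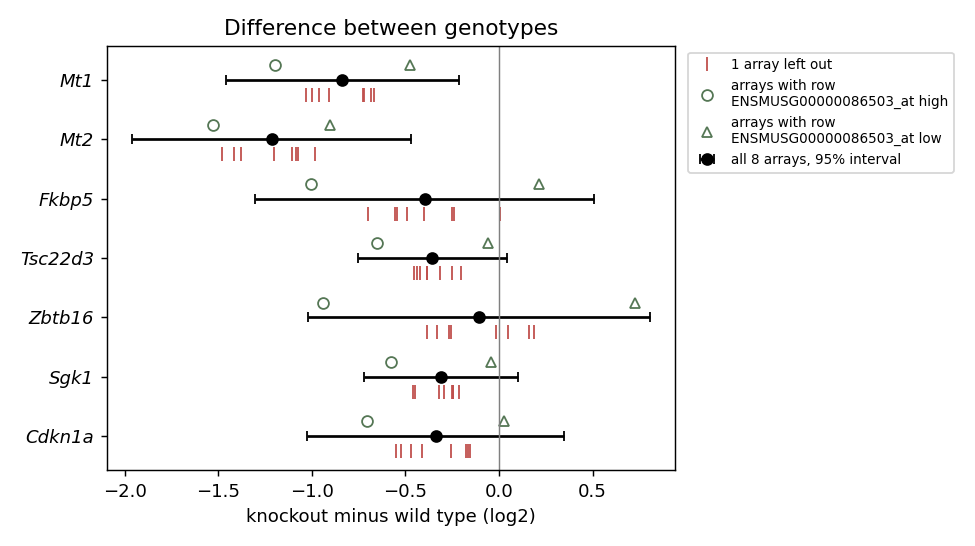
Knockout minus wild-type difference of each gene in log2 units, with the 95% interval of the limma fit over 8 arrays (black). Red ticks leave out 1 array each, and open symbols give the difference on each side of the division by row ENSMUSG00000086503_at. The values of Mt1 and Mt2 all lie below 0, from -1.53 to -0.48, whereas Fkbp5, Zbtb16 and Cdkn1a have values on both sides of 0.

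Arrays of one genotype differed more in Zbtb16, Fkbp5, Mt2, Cdkn1a and Mt1 than in most rows. The SD within genotypes was 0.74 for Zbtb16, 0.73 for Fkbp5, 0.60 for Mt2, 0.55 for Cdkn1a and 0.49 for Mt1, against a median of 0.18 over all rows. Of all rows, 99.4% had a lower SD than Zbtb16 and than Fkbp5, 98.8% a lower SD than Mt2, 98.4% than Cdkn1a and 97.5% than Mt1. Among the 1000 rows nearest in mean level these shares were 99.0% for Zbtb16, 98.9% for Fkbp5, 98.0% for Mt2, 97.3% for Cdkn1a and 94.8% for Mt1. Tsc22d3, at 0.30, and Sgk1, at 0.31, stood lower, with 83.9% and 86.0% of all rows below them, and 70.3% and 73.5% of the rows nearest in level. The difference between genotypes in Mt2, 1.21, compares with a range of 1.29 among its wild-type arrays and 1.21 among its knockout arrays.

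**Figure D3:**
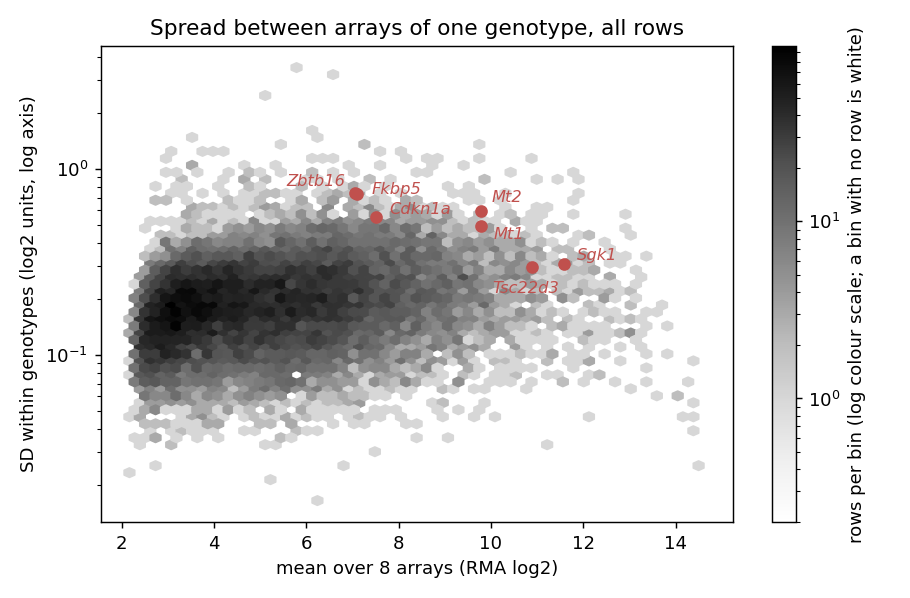
SD between arrays within genotypes (log2 units, log axis) against the mean RMA log2 value for all 17352 rows, as counts of rows per bin, with the 7 genes in red. Zbtb16, Fkbp5, Mt2, Cdkn1a and Mt1 lie toward the upper edge, and Tsc22d3 and Sgk1 nearer the bulk of rows.

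This variation was largely shared in wild type, and less evenly in the knockout. In wild type, replicates 1 and 2 were both above replicates 3 and 4 in 6 of the 7 genes, all but Sgk1. Wild type replicate 4 had the lowest value of its genotype in 6 genes. In the knockout, replicate 4 had the highest value in 5 of 7 genes and replicate 3 the lowest in 5. The wild-type pattern followed the division by ENSMUSG00000086503_at, but the knockout pattern did not, since knockout replicates 3 and 4 lie on the same side of it.

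The correlations that follow are over the 8 arrays after subtraction of the genotype means, so that the difference between genotypes plays no part in them. They are descriptions of 21 pairs of genes measured on the same arrays, without a test. Mt1 and Mt2 had a Pearson r of 0.965 and a Spearman rho of 0.929, and r was 0.931 without the 2 arrays farthest from the median of Mt1. Fkbp5 and Tsc22d3 had an r of 0.965 and a rho of 0.881, with an r of 0.929 when the 2 arrays farthest in Fkbp5 were left out. The 8 pairs of a metallothionein with Fkbp5, Tsc22d3, Zbtb16 or Cdkn1a had an r between 0.663 and 0.966, with a median of 0.839. Zbtb16 had the lowest of these, and with it the genotypes differed in value: r was 0.940 with Mt1 and 0.922 with Mt2 among the 4 wild-type arrays, but 0.375 and 0.343 among the 4 knockout arrays. Mt2 and Tsc22d3 had an r of 0.806, which was 0.587 without the 2 arrays farthest from the median of Mt2. Cdkn1a was nearest to the metallothioneins, at an r of 0.966 with Mt1 (rho 0.905) and 0.959 with Mt2 (rho 0.976), and its r with Fkbp5 was 0.752 (rho 0.762). Among the 4 knockout arrays, r of Cdkn1a was 0.946 with Mt1 and 0.922 with Mt2, but 0.545 with Tsc22d3 and 0.073 with Zbtb16. In wild type the latter 2 were 0.966 and 0.974. Mt2 and Fkbp5 had an r of 0.799 and a rho of 0.810. That r was 0.973 among the wild-type arrays and 0.752 among the knockout arrays, 4 of each, and 0.653 without the 2 farthest arrays. A term for the division by ENSMUSG00000086503_at, equal in both genotypes, was then also removed. After that, r with Mt2 was 0.956 for Fkbp5, 0.950 for Tsc22d3, 0.914 for Cdkn1a and 0.654 for Zbtb16. Such a term leaves in any division that differs between genotypes. The high side minus the low side was 0.92 in wild type and -0.30 in the knockout for Fkbp5, and 1.27 and -0.40 for Zbtb16. For Mt2 it was 1.08 and 0.46. These r values therefore do not show likeness apart from the division.

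Sgk1 stood apart, with an r between -0.06 and 0.56 to the other 6 genes and a median of 0.07. Its highest value was with Zbtb16, at 0.564, and this was 0.077 without the 2 arrays farthest from the median of Zbtb16.

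**Figure D4:**
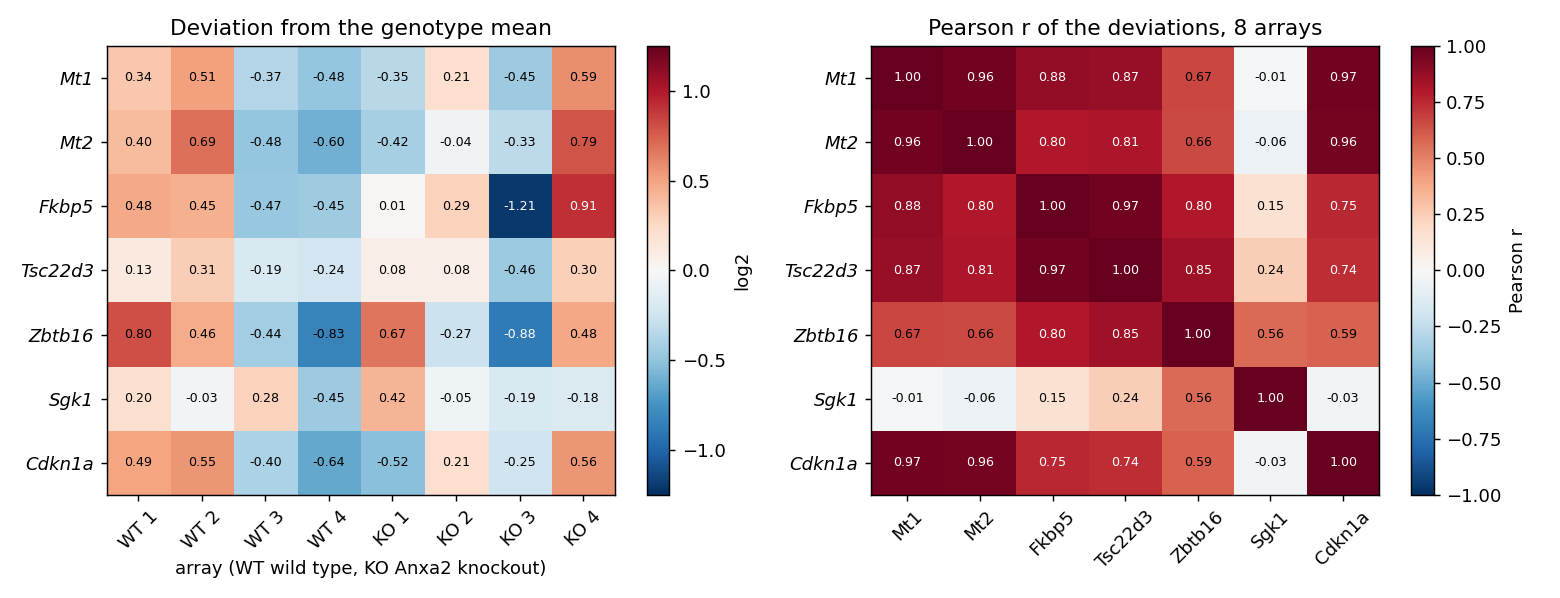
Left, deviation of each array from the mean of its genotype for each gene, in log2 units. Right, Pearson r of these deviations between genes over 8 arrays. Knockout replicate 4 is above its genotype mean in every gene but Sgk1, and Sgk1 has correlations between -0.06 and 0.56 with the others.

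The likeness between these genes was then set against the whole table. Ordered by their correlation with Mt2 among the 17351 other rows, Mt1 was at place 4 and Cdkn1a at place 6, while Tsc22d3 was at place 233, Fkbp5 at 251, Zbtb16 at 838 and Sgk1 at 7569. Ordered by correlation with Fkbp5, Tsc22d3 was at place 6, Mt1 at 37, Zbtb16 at 145, Mt2 at 147, Cdkn1a at 232 and Sgk1 at 5589. Outside the set, the rows most like Mt2 were ENSMUSG00000060716_at, with an r of 0.974, and ENSMUSG00000022129_at, with an r of 0.971. Those most like Fkbp5 were ENSMUSG00000041488_at, with an r of 0.981, and ENSMUSG00000000275_at, with an r of 0.974. The rows ENSMUSG00000060716_at and ENSMUSG00000022129_at had nearly equal means in both genotypes, with knockout minus wild-type differences of -0.04 and -0.05. Their wild-type means were 4.00 and 4.68 and their wild-type SDs 0.25 and 0.17, against 10.39 and 0.64 for Mt2. At this lower level and spread, the size of their differences cannot be compared with that of Mt2. The next row most like Mt2, ENSMUSG00000038526_at, had an r of 0.966 and SDs of 0.59 in wild type and 0.52 in the knockout. Its means were 8.20 and 8.31, higher in the knockout by 0.11. The next row most like Fkbp5, ENSMUSG00000067279_at, had an r of 0.974 and a difference of -0.61. The differences of ENSMUSG00000041488_at and ENSMUSG00000000275_at were -0.15 and 0.02.

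Knockout replicate 4 and wild type replicates 1 and 2 had Fkbp5 values of 7.82, 7.78 and 7.75, and Mt2 values of 9.96, 10.79 and 11.08. Knockout replicate 1 and wild type replicates 3 and 4 had Fkbp5 values of 6.92, 6.83 and 6.86, and Mt2 values of 8.76, 9.91 and 9.79. Knockout replicate 2, at an Fkbp5 of 7.19, had an Mt2 of 9.13, and knockout replicate 3, at an Fkbp5 of 5.70 below every wild-type array, had an Mt2 of 8.84. These values are a description, since the lower Mt2 in the knockout chose the set. The part of hormone exposure, time of day or handling was not tested.

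**Figure D5:**
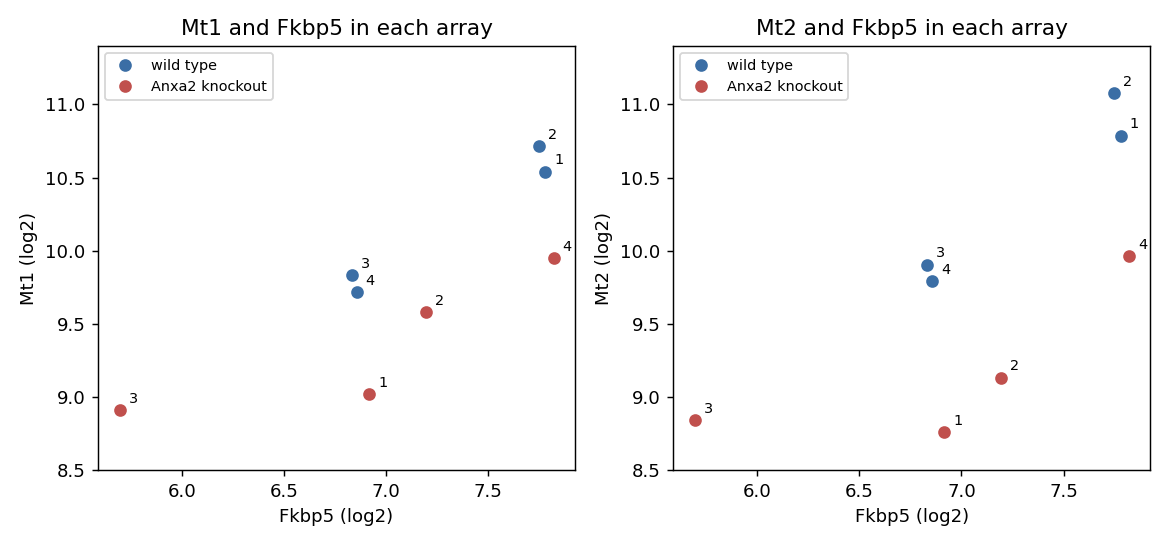
Mt1 (left) and Mt2 (right) against Fkbp5 in each array, all in RMA log2 units, with the replicate number beside each point. Within each genotype the array with the highest Mt1 and Mt2 has an Fkbp5 value of 7.75 or more, and the Fkbp5 values of the knockout span 2.12 against 0.95 in wild type.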

How the data were processed

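Total RNA from frozen left-hindlimb gastrocnemius of 8 mice was labelled with a 3'-primed Affymetrix kit, per the labels' protocols. The deposited values are log2 expression values that the authors computed with RMA in R 3.1.2, per the submitters' processing notes. Probe grouping, filtering and scan dates were not stated in these sources. The table has 17352 rows, each an Ensembl gene ID. The RefSeq name table has 0 Ensembl IDs among 49997 genes, so the 13 fixed lists of pathway and cell type genes were not analysed here. The symbols of the 7 genes came with the list of IDs that defines them. The members and lists were chosen with earlier results of these data known.

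Differences, SEs and 95% intervals came from limma 3.58.1 in R 4.3.3, with genotype as the only term, over all rows and 8 arrays, and with Benjamini-Hochberg adjustment and a threshold of 0.05. The fit was tested on simulated data. Correlations used deviations from genotype means (numpy 2.4.6, scipy 1.17.1). Spread was compared with the 1000 rows nearest in mean level. Named rows were the 7 genes and, under the fixed rule, the 3 rows most correlated with Mt2 and with Fkbp5. These rows are given by their IDs because they lack names. The arrays are labelled as biological replicates. The p-values set the difference between genotypes against the spread between these arrays, moderated over all rows. Alternatives were a replicate block, low-value filters (percentiles 25 and 50 of the row mean), trended robust moderation, array weights, renewed normalization, a block for the division of the arrays, and leaving out arrays.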

Additional observations from a re-analysis of the deposited data

How the results depend on the processing

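In 19 alternative fits, 1 of them chosen after seeing the data (Fkbp5 as a covariate), 0 of 132 fits of a member had a limma adjusted p under 0.05, and the lowest was 0.936. The Mt2 difference ran from -1.52, with array weights, to -0.96, and that of Mt1 from -1.12 to -0.60, the upper ends with the covariate. No support is drawn from that covariate, since Mt2 was chosen for this difference. Over all rows 1 was called with the replicate block, array weights, median centring, quantile normalization and cyclic loess, none of the 7 genes, and 0 in the others, including each array left out in turn. With the replicate number as a block, which holds 1 array of each genotype and so leaves the difference of Mt2 at -1.21 by construction, the SE was 0.35 for Mt2 and 0.26 for Mt1. Same-numbered arrays correlated at -0.07, -0.25, 0.18 and -0.24 in their deviations, so the numbers gave no regular sign of pairing. The median correlation of Sgk1 with the other 6 genes ran from -0.29 to 0.29 with 1 array left out, and was -0.28 without wild type replicate 4 and knockout replicate 2. The cause was not tested. The correlation of Mt1 and Mt2 lay between 0.950 and 0.993, and that of Mt2 and Fkbp5 between 0.685 and 0.982.

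The share of rows with a lower SD than Sgk1 was 86.0%, and it was 91.1% after quantile normalization, 91.3% after cyclic loess, 91.2% with the division as a block and 91.7% without wild type replicate 4 and knockout replicate 2. In the fit without these arrays it was 98.8% for Mt1, 99.2% for Mt2, 99.6% for Fkbp5, 95.6% for Tsc22d3 and 98.9% for Cdkn1a. With the division as a block it was 97.0% for Mt2, 99.7% for Fkbp5, 99.7% for Zbtb16 and 96.6% for Cdkn1a. With 1 array left out it ran from 95.8% to 98.4% for Mt1, 97.6% to 99.0% for Mt2, 97.2% to 99.6% for Fkbp5, 61.3% to 92.2% for Tsc22d3, 99.0% to 99.6% for Zbtb16, 72.4% to 89.4% for Sgk1 and 97.7% to 98.6% for Cdkn1a. Alternatives on the fixed gene lists were not run, since rows lack names. Dixon's test, which with 4 arrays needs a gap that makes up most of the range, marked 0 of 14 sets of 4 values of the 7 genes. It can miss arrays that weigh on a difference, as knockout replicate 3 did for Fkbp5.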
